A study of Rattus norvegicus with 6 samples.

Results

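Isolated constitutive open regions are short stretches of DNase I-accessible chromatin that were present in every library of rat microglia and had no other counted region near them. They were chosen by measured values: a region had to overlap a hotspot, a stretch of dense DNase I cutting listed by the authors, in all 6 libraries. It also had to be under 1500 bp long, with no other region of the count table starting within 50 kb of its own start on the same chromosome. Of 129499 counted regions, 69548 overlapped a hotspot in all 6 lists, 66587 of these were under 1500 bp, and 936 of those were isolated. The 936 regions made up 0.723% of the table and 1.41% of the compact constitutive regions. The remaining 65651 compact constitutive regions had a neighbour within 50 kb and serve as the comparison.

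The cells were microglia, the immune cells that live in the brain, grown from the cerebral cortex of Wistar rat pups 1 day old. Each of the 6 libraries came from an independent culture pooled from 10 to 15 pups, kept for 2 weeks in 10% serum and, after shaking off, for a further 48 h. In the untreated group, 2 cultures received no stimulus. In the LPS group, 2 cultures received 100 ng/mL lipopolysaccharide of Salmonella enteritidis for 6 h. In the GCM group, 2 cultures received, also for 6 h, medium that the rat glioma line C6 had conditioned for 24 h. All groups shared strain, age, serum and culture steps, and the labels name no genetic change. Microglia shaken off mixed cortical cultures can carry other cell types with them. The tables measure DNA, pair no region with a gene and use rat build rn5, for which no annotation was used here, so regions are given by identifier and position and cell type markers were not checked.

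DNase I cuts DNA that is not wrapped tightly on nucleosomes, so the number of cut ends in a region reports how open it is. Regions that are open whatever the state of a cell are, in general, often promoters of widely expressed genes or sites bound by structural proteins such as CTCF, while enhancers that answer to a stimulus tend to lie in groups near the genes they act on. LPS is sensed by the receptor TLR4 and switches on NF-kB and other inflammatory transcription factors, and glioma cells release factors that change the behaviour of microglia. Which of these roles the 936 regions have cannot be read from counts and positions alone.

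The isolated regions lay on all 21 chromosomes of the table and were narrow. Their widths ran from 79 to 1496 bp with a median of 370 bp, against 535 bp in compact constitutive regions with a neighbour. The nearest other start was at a median of 90.8 kb and at most 2113 kb. It was over 100 kb away for 404 regions, over 500 kb for 38 and over 1 Mb (1000 kb) for 7. Within 500 kb on either side, the median number of other counted regions was 19, against 91 around compact constitutive regions with a neighbour. This number ran from 0 to 122, so some isolated regions stood in empty stretches and others in a gap of a well-filled one. Of the 936, 266 had another isolated region as the next entry along the chromosome, in 141 such pairs and in runs of at most 4.

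The chromosomes differed in how much of their constitutive chromatin was isolated, as the plot by chromosome shows. On chromosome X, 66 of 994 compact constitutive regions were isolated (6.64%), and X held 7.05% of the isolated regions but 1.55% of the whole table. The next highest share was 2.19% on chromosome 2 (103 of 4693). The lowest shares were 0.471% on chromosome 10 (23 of 4886) and 0.501% on chromosome 20 (9 of 1798). Isolation was set by the spacing of the table's entries, so these shares describe that spacing and carry no test.

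**Figure D1:**
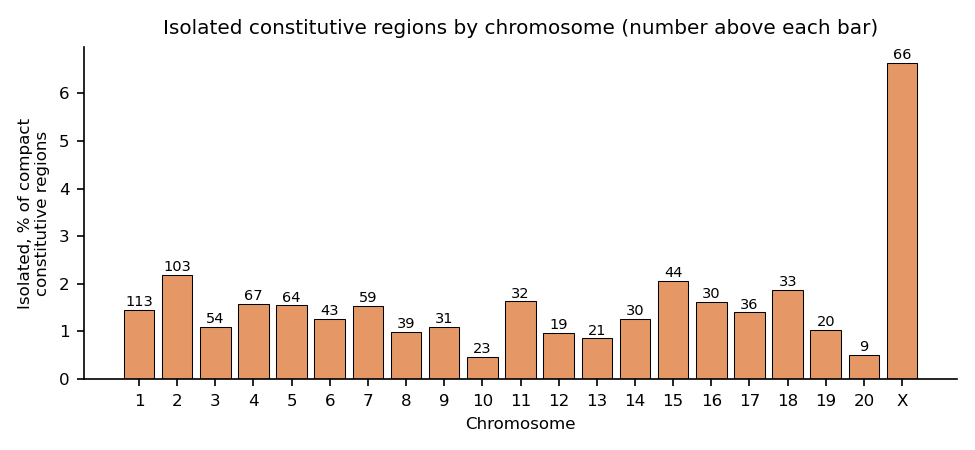
Bars give, for each chromosome, the percentage of compact constitutive regions that were isolated, and the number above a bar is the count of isolated regions. Chromosome X stands at 6.64%, above 2.19% on chromosome 2, and chromosomes 10 and 20 are lowest.

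Before the responses, 1 library has to be set apart. Counts in the whole table numbered 7.14 M to 12.4 M per library, and the median count per isolated region was 62 and 40 in untreated replicates 1 and 2, 55 and 59 with LPS, and 46 and 68 with GCM. Isolated regions held 0.676% to 0.695% of each library's counts in the table, except in LPS replicate 2, where they held 0.610% (95% Wilson interval 0.606% to 0.615%, which covers counting error only). In CPM, counts scaled to 1 M counts of the table per library with TMM correction, the median isolated region stood at 5.54 and 5.60 untreated, 5.58 and 4.81 with LPS, and 5.65 and 5.56 with GCM, each in replicate 1 and 2. LPS replicate 2 was below LPS replicate 1 in 725 of 936 isolated regions (77.5%), but in 48.3% of compact constitutive regions with a neighbour. It was the lowest of the 6 libraries in 344 isolated regions, and each other library was the lowest in 85 to 156.

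This replicate difference grew with distance. The median log2 difference of LPS replicate 2 from replicate 1 (on CPM with 0.5 added, as for the other replicate differences) was 0.03 where the nearest start lay within 1 kb, -0.07 at 10 to 25 kb, -0.14 at 25 to 50 kb, -0.15 at 50 to 100 kb, -0.20 at 100 to 200 kb and -0.17 beyond 200 kb. In the untreated and GCM pairs the same medians stayed between -0.05 and 0.04 at every distance. Among compact constitutive regions of 4 to 7 CPM alone, the LPS difference was 0.02 within 5 kb (13991 regions), -0.07 at 5 to 25 kb (5287), -0.15 at 25 to 50 kb (581) and -0.20 in the isolated ones (438), so the LPS pattern was present at a single level of openness. In the same bins the GCM difference was 0.04, 0.08, 0.07 and -0.01, and the untreated one 0.02, 0.04, 0.02 and -0.02. On chromosome X, 36 of 66 isolated regions were lower in LPS replicate 2 (54.5%, median difference -0.01), against 689 of 870 on the autosomes (79.2%, -0.17). In regions with a neighbour the shares were 36.1% on X (0.07) and 48.5% on the autosomes (0.01). Isolated regions thus stood lower than those with a neighbour on X too. Isolated X regions also differed by 0.08 between untreated replicates and by -0.10 between GCM replicates. Counts of LPS calls are therefore also given without LPS replicate 2, and by direction without replicate 1.

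**Figure D2:**
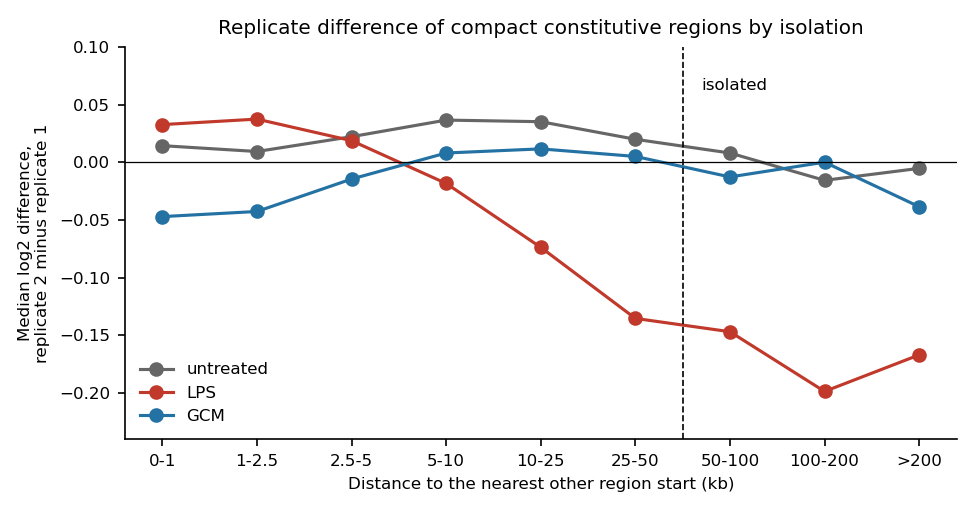
Points give the median log2 difference in CPM (0.5 added) between replicate 2 and replicate 1 of each group, over compact constitutive regions binned by distance to the nearest other start in kb, with the isolated regions right of the dashed line. The LPS pair falls from 0.03 to between -0.15 and -0.20, and the other pairs stay near 0.

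The level of the isolated regions was modest and closely tied to their width. The mean over 6 libraries ran from 1.31 to 36.4 CPM with a median of 5.38 (quartiles 4.16 and 7.86), against a median of 8.80 CPM in compact constitutive regions with a neighbour and 5.25 CPM in all 126284 regions tested. Per kb of region the medians were closer, at 14.6, 16.3 and 13.4 CPM per kb. Levels carry no test here because hotspots in all libraries chose the regions. In the authors' own hotspot score, whose definition is not stated, the median isolated region stood at the 56.7th to the 73.3rd percentile of each library's hotspot list, and the comparison regions at the 66.1st to the 78.1st. The hotspot covered a median of 83.0% of the region in untreated replicate 2 and 92.7% to 97.4% in the other libraries.

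**Figure D3:**
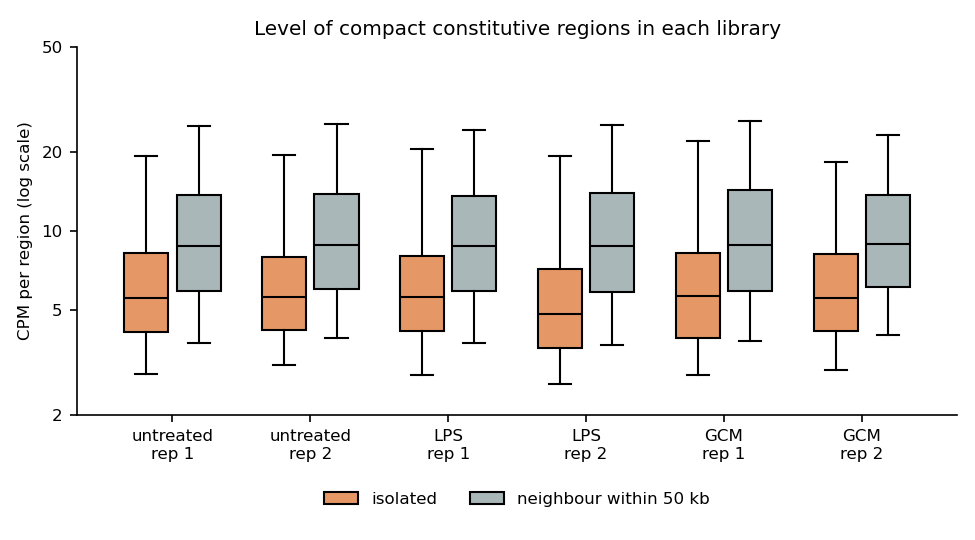
Boxes give the quartiles and median of CPM per region (log axis) in each library, whiskers the 5th and 95th percentiles, for the 936 isolated regions and for compact constitutive regions with a neighbour within 50 kb. The isolated boxes share a median near 5.6 CPM in every library except LPS replicate 2, at 4.81.

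The most open of the isolated regions were wide and changed little. RID_00006878 (chr1:153316285-153317630, 1346 bp) had 35.3 and 41.7 CPM untreated, 36.5 and 33.8 with LPS, and 37.8 and 33.2 with GCM. RID_00110829 (chr7:83362044-83363250, 1207 bp) had 35.5 and 37.2 CPM untreated, 34.7 and 34.8 with LPS, and 40.0 and 31 with GCM. RID_00046691 (chr16:39826375-39827729, 1355 bp) had 32.9 and 33.5 CPM untreated, 37.3 and 33.2 with LPS, and 40.7 and 31.9 with GCM. In all 3 the GCM replicates stood farther apart than the untreated and LPS means, and no group stood clear of both others. The next in order were RID_00068652 (chr2:228899682-228900824), RID_00000320 (chr1:6890812-6891989), RID_00023993 (chr11:20783333-20784576), RID_00107128 (chr7:10964808-10965929), RID_00048789 (chr17:4893777-4895272), RID_00026031 (chr11:71720080-71721380) and RID_00036004 (chr14:3354232-3355717). All 10 were 1122 bp wide or wider.

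The 5 lowest isolated regions were 79 to 127 bp wide. RID_00063081 (chr2:67916183-67916284, 102 bp) had 1.43 and 1.54 CPM untreated, 0.811 and 1.47 with LPS, and 1.23 and 1.39 with GCM. The other low ones were RID_00126796 (chr9:105630977-105631096), RID_00047113 (chr16:56114984-56115110), RID_00002897 (chr1:61020406-61020484, 79 bp) and RID_00094670 (chr5:81876932-81877048). At such low counts replicates stood far apart in proportion, as the LPS pair of RID_00063081 shows.

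The most solitary region was RID_00044427 (chr15:100295863-100296485, 623 bp), 2113 kb from the nearest other start. It had 8.05 and 9.52 CPM untreated, 7.10 and 7.42 with LPS, and 8.10 and 6.14 with GCM. RID_00038189 (chr14:51026505-51026812), with its nearest start at 2025 kb, had 3.31 and 3.92 CPM untreated, 3.25 and 3.02 with LPS, and 4.42 and 4.50 with GCM. RID_00129342 (chrX:132971459-132971623) was 1843 kb from its neighbour, RID_00114205 (chr8:38702-39064) 1345 kb and RID_00063782 (chr2:90272703-90272944) 1119 kb. None of the 5 was called in any comparison.

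Some isolated regions held nearly 1 value in all libraries. The log2 range over the 6 libraries had a median of 0.58 and ran from 0.10 to 1.59. In RID_00059764 (chr19:55809935-55810279, 536.1 kb from its neighbour) CPM was 4.20 and 3.92 untreated, 3.96 and 3.99 with LPS, and 3.93 and 3.93 with GCM. RID_00062348 (chr2:51358273-51359236) kept to 16.8 to 18.1 CPM, RID_00070714 (chr2:280074383-280075204) to 23.2 to 24.9 and RID_00020178 (chr10:71660904-71661802) to 14.6 to 15.7. RID_00036004, also among the most open, kept to 28.2 to 31 CPM.

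At the limits of the choice, the longest region inside the length limit was RID_00048789 at 1496 bp and 30.5 CPM, and the shortest isolated region outside it (chr2:256789528-256791034) had 1507 bp and 29.8 CPM. The closest neighbour inside the isolation limit was at 50010 bp, for RID_00120749 (chr8:117735716-117736062, 9.36 CPM), and the farthest outside it at 49933 bp (chr17:81475513-81475764, 3.90 CPM). Another 1583 isolated regions under 1500 bp lacked a hotspot in at least 1 library. The 1501 of them that were tested had a median of 2.49 CPM, and those with hotspots in 5 lists 3.44 CPM.

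Responses were tested in edgeR (quasi-likelihood test, all 6 libraries in 1 fit over the whole table, Benjamini-Hochberg adjusted p under 0.05), and all 936 isolated regions passed the filter on low counts. The choice by hotspots in every library favours regions that stay open and so disfavours large changes. In 825 isolated regions (88.1%) none of the 3 comparisons gave a call, a share that was not computed for all regions tested. Calls for LPS, GCM and GCM against LPS were made in 6.62%, 1.18% and 7.26% of isolated regions. Of all regions tested, 9.85%, 1.57% and 8.58% were called. Among compact constitutive regions with a neighbour the shares were 6.57%, 1.13% and 5.90%. Changes past 2-fold occurred in 1 region with LPS and 0 with GCM against untreated cultures, against 3.10% and 1.22% of all regions tested and 0.192% and 0.0381% of compact constitutive regions with a neighbour. Without LPS replicate 2, 4 isolated regions passed 2-fold with LPS (0.427%), against 4.32% of all regions tested and 0.300% of those with a neighbour. Between GCM and LPS, 3 isolated regions differed more than 2-fold (0.321%), against 2.40% of all regions tested and 0.203% of compact constitutive regions with a neighbour. Replicates of isolated regions differed by a median of 0.15, 0.20 and 0.18 in absolute log2 CPM within the untreated, LPS and GCM pairs.

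**Figure D4:**
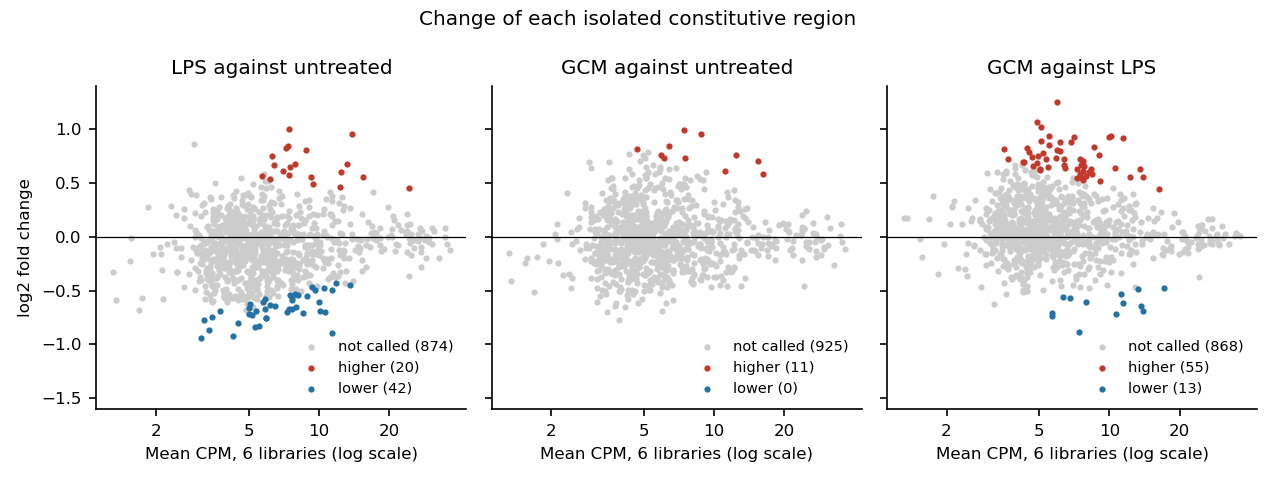
Each point is an isolated constitutive region, placed by mean CPM over 6 libraries (log axis) and log2 fold change from edgeR, with called regions (adjusted p under 0.05) in red where higher and blue where lower. Calls number 20 and 42 for LPS, 11 and 0 for GCM, and 55 and 13 for GCM against LPS.

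Comparing LPS with untreated cultures addresses how isolated open chromatin responds to an inflammatory stimulus. LPS raised 20 isolated regions and lowered 42 of 936. That is 2.14% and 4.49%, where 6.71% and 3.14% of all regions tested were called higher and lower, and 3.81% and 2.75% of compact constitutive regions with a neighbour. Those with the nearest start at 25 to 50 kb, outside the isolation limit, also had more decreases, at 1.65% higher and 5.60% lower. At 10 to 25 kb the shares were 3.15% and 4.00%. The median log2 change of isolated regions was -0.10, against -0.000685 in all regions tested. Both LPS libraries lay above both untreated ones in 125 isolated regions and below both in 315, where 27.9% and 26.3% of all regions tested did so. Without LPS replicate 2 the calls were 23 higher and 7 lower, against 4.25% and 1.44% of all regions tested, and the median change was -0.01. The shares in compact constitutive regions with a neighbour were then 2.47% and 1.31%. Without LPS replicate 1 the calls were 6 higher and 44 lower, against 4.52% and 2.03% of all regions tested. The balance between directions thus depended on which LPS library was left out.

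The decreases also depended on the scaling. Each library was also scaled to its total reads, as inferred from the authors' CPM, instead of its counts in the table. Then 9 isolated regions were called higher and 3 lower, against 4.98% and 0.543% of all regions tested. The share of higher calls went from 20 of 62 to 9 of 12. Scaled by the isolated regions alone, a setting chosen after seeing the data, 24 were higher and 15 lower, against 7.87% and 1.21% of all regions tested. A fit of constitutive regions alone gave 20 and 23, against 3.81% and 1.57% of the regions in that fit. Of the 20 increases, 16 kept the call without LPS replicate 2, 6 without LPS replicate 1 and 8 with total reads. Of the 42 decreases, 6, 29 and 3 did. Single untreated libraries mattered as well, with 8 calls without untreated replicate 1 and 16 without untreated replicate 2, against 3.48% and 3.65% of all regions tested. DESeq2 called 1 isolated region higher and 0 lower, against 0.558% and 0.0517% of all regions. The authors' deposited table gave an adjusted p under 0.05 to 16 isolated regions as higher and 42 as lower, against 6.43% and 3.33% of the regions in that table. Of those 58, 56 were also called here. Both sets of calls come from the same libraries, so this overlap is no independent check.

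The regions raised by LPS had a median of 5.72 CPM untreated and of 9.77 CPM with LPS. Region by region the median log2 change was 0.63, in a set chosen for being called higher. The clearest was RID_00032696 (chr13:72409403-72410257, 855 bp, 58.6 kb from its neighbour), with 9.84 and 10.4 CPM untreated, 19.7 and 19.4 with LPS, and 11.8 and 12.4 with GCM. Both LPS libraries stood far above the other 4, which lay close together. The increase was 0.96 ± 0.137 (log2 ± SE, n = 2 per group, edgeR adjusted p = 7e-06), it held at 0.97 without LPS replicate 2, and it was the single isolated region that DESeq2 called (adjusted p = 0.00475). It was also lower with GCM than with LPS, by -0.69 ± 0.129 (edgeR adjusted p = 0.000342).

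RID_00109200 (chr7:52687785-52688278) had 4.29 and 5.46 CPM untreated, 10.8 and 8.56 with LPS, and 7.86 and 7.94 with GCM. It had the largest LPS increase among isolated regions, 1.00 ± 0.183 on the log2 scale (edgeR adjusted p = 0.000221), and it was also raised by GCM, by 0.73 ± 0.193 (edgeR adjusted p = 0.0393). Both increases share the untreated libraries. The groups did not overlap in either comparison.

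RID_00063345 (chr2:74432698-74433362) went from 10.6 and 10.8 CPM to 17.2 and 16.8 with LPS, with 11.3 and 12.8 under GCM. RID_00032385 (chr13:59598087-59598627) went from 6.35 and 5.04 CPM to 12.4 and 8.88 with LPS, with 6.63 and 4.99 under GCM. RID_00064648 (chr2:130284277-130284678), whose nearest neighbour was 653.5 kb away, went from 4.74 and 5.18 CPM to 8.42 and 8.15, with 6.01 and 5.32 under GCM. In these 3 regions LPS stood clear of untreated cultures while the GCM values stayed nearer to the untreated ones. The difference between GCM and LPS passed the edgeR test in each (adjusted p = 0.0142, 0.000811 and 0.0304), and without LPS replicate 2 it passed in RID_00032385 alone.

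RID_00106652 (chr6:151465134-151465609) behaved differently, with 4.92 and 6.58 CPM untreated, 11.5 and 8.31 with LPS, and 10.2 and 11.3 with GCM. RID_00065002 (chr2:139363729-139364362) had 11.7 and 10.6 CPM untreated, 19.9 and 13.7 with LPS, and 19.1 and 17.8 with GCM. In both, all 4 stimulated libraries lay above both untreated ones. The remaining regions among the 10 smallest p-values were RID_00061336 (chr2:10580144-10580534, 1.78-fold), RID_00046694 (chr16:39991400-39991839, 1.57-fold) and RID_00084288 (chr4:14342598-14343019, 1.59-fold), and all 10 kept the call without LPS replicate 2. Without LPS replicate 1 the call was lost in RID_00032385 (0.59, edgeR adjusted p = 0.0582), RID_00106652 (0.56, adjusted p = 0.0807), RID_00065002 (0.27, adjusted p = 0.374) and RID_00084288 (0.44, adjusted p = 0.224).

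The regions lowered by LPS started higher, at a median of 7.87 CPM untreated, and stood at 5.07 CPM with LPS and 7.67 CPM with GCM. In 32 of these 42 regions LPS replicate 2 was the lower of the LPS libraries. It was so too in 725 of all 936 isolated regions (77.5%) and in 18 of the 20 raised ones. This order was thus not particular to the decreases. RID_00058357 (chr19:34696983-34697603, 621 bp) had 13.5 and 13.0 CPM untreated, 9.03 and 5.62 with LPS, and 13.6 and 13.5 with GCM. The decrease was -0.89 ± 0.165 (log2 ± SE, n = 2 per group, edgeR adjusted p = 0.000288). The untreated and GCM libraries agreed closely and both LPS libraries were below them, but far apart from each other, and without LPS replicate 2 the change was -0.56, just at the threshold (edgeR adjusted p = 0.04996).

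RID_00109098 (chr7:44795336-44795966) had 10.2 and 9.94 CPM untreated, 5.88 and 6.85 with LPS, and 7.73 and 7.36 with GCM. RID_00046695 (chr16:40270635-40271186) had 8.76 and 9.10 CPM untreated, 5.58 and 5.62 with LPS, and 8.59 and 8.51 with GCM. RID_00007091 (chr1:162934319-162934885) had 9.93 and 7.28 CPM untreated, 5.48 and 5.46 with LPS, and 8.35 and 7.28 with GCM. In these 3 of the 10 with the smallest p-values LPS replicate 1 was lower than replicate 2 or nearly equal to it, and the edgeR call held without replicate 2 (adjusted p = 0.0127, 0.0446 and 0.0481). Their log2 decreases in the full data were -0.65 ± 0.162, -0.67 ± 0.169 and -0.69 ± 0.178.

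The other decreases among the 10 were RID_00051594 (chr17:51081898-51082674), RID_00044062 (chr15:86871987-86872354), RID_00046717 (chr16:45318571-45319084), RID_00063601 (chr2:80826915-80827336), RID_00044044 (chr15:78328640-78328976) and RID_00065032 (chr2:140557260-140557639). Their decreases ran from -0.92 to -0.69 on the log2 scale, and none kept the call without LPS replicate 2. The size of the change without that library was still -0.78 in RID_00044062 and -0.74 in RID_00044044, beside -0.92 and -0.83 with it, while in RID_00051594 it was -0.36 beside -0.70. In RID_00051594 the LPS libraries read 9.54 and 5.87 CPM beside 12 and 12.6 untreated. In RID_00044062 they read 3.14 and 2.61 beside 5.46 and 5.32, so this region was low in both.

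In 1 case, neighbouring isolated regions were called in opposite directions. Among the 141 pairs of adjacent isolated regions, 1 pair had both members called with LPS: RID_00046694, raised from 6.44 and 5.60 to 9.94 and 9.29 CPM, and the next entry RID_00046695, lowered as given above. Their starts lie 279.2 kb apart on chromosome 16. This pair was chosen after its values were seen, and DESeq2 called neither region (adjusted p = 0.396 and 0.344).

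Comparing GCM with untreated cultures addresses how the same chromatin responds to factors that glioma cells release. GCM raised 11 isolated regions of 936 (1.18%) and lowered 0, where 1.34% and 0.231% of all regions tested were called higher and lower. Among compact constitutive regions with a neighbour the shares were 1.06% and 0.0625%. The median log2 change was -0.04, against -0.00169 in all regions tested. Both GCM libraries lay above both untreated ones in 176 isolated regions and below both in 245, against 23.6% and 22.4% of all regions tested. At an unadjusted p under 0.05 edgeR gave 75 higher and 72 lower, where it gave 9.23% and 5.89% of all regions tested. DESeq2 called 0 in either direction, and 0.00232% of all regions. The authors' deposited table called 12 higher and 2 lower, where it called 1.49% and 0.327% of its regions. The edgeR count was 0 without untreated replicate 1, 1 without untreated replicate 2, 0 without GCM replicate 2 and 1 with total reads, where 0.00948%, 0.0685%, 0.0261% and 0.34% of all regions tested were called. It was 19 (1 of them lower) without LPS replicate 1 or without LPS replicate 2, against 2.08% and 2.09%.

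The 11 regions had a median of 4.96 CPM untreated and of 9.84 CPM with GCM, medians that need not fall on the same region. Region by region the median log2 change was 0.76 and the largest 0.99, in a set chosen for being called higher. RID_00104061 (chr6:106835919-106836279, 361 bp) had 4.74 and 5.18 CPM untreated, 8.62 and 6.28 with LPS, and 10.2 and 9.49 with GCM. Its increase of 0.99 ± 0.184 (log2 ± SE, n = 2 per group, edgeR adjusted p = 0.00304) was the largest with GCM among isolated regions and the only one that kept the call with total reads (adjusted p = 0.0324). RID_00106652, described above, rose by 0.95 ± 0.182 (edgeR adjusted p = 0.00386), and RID_00065002 by 0.70 ± 0.154 (edgeR adjusted p = 0.0122).

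RID_00094913 (chr5:88149977-88150599) had 13.3 and 13.7 CPM untreated, 17 and 12.9 with LPS, and 22 and 18.7 with GCM. RID_00120935 (chr8:120516336-120517018) had 9.39 and 8.54 CPM untreated, 12.1 and 9.13 with LPS, and 14.4 and 13.4 with GCM. In both, GCM stood above all other libraries. Of the pair, RID_00094913 also passed the edgeR test of GCM against LPS (0.44 on the log2 scale, adjusted p = 0.0327), but not without LPS replicate 2 (0.24, edgeR adjusted p = 0.47).

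RID_00075530 (chr3:23144431-23144880), 766.4 kb from its neighbour, had 4.74 and 3.78 CPM untreated, 7.61 and 6.36 with LPS, and 9.08 and 6.96 with GCM. RID_00063071 (chr2:67669108-67669735) had 8.05 and 10.2 CPM untreated, 14.5 and 12.7 with LPS, and 11.2 and 18.1 with GCM, so its GCM replicates were far apart. RID_00075538 (chr3:25459587-25459988) rose 1.70-fold and RID_00023798 (chr11:11504679-11505043) 1.76-fold. The last of the 11, outside the 10 smallest p-values and named after its values were seen, was RID_00044474 (chr15:105388316-105388661), with 3.93 and 5.74 CPM untreated and 7.24 and 8.10 with GCM.

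The direct comparison of GCM with LPS asks where the stimuli leave chromatin in different states, and it uses no untreated library in its contrast. GCM was higher than LPS in 55 isolated regions (5.88%) and lower in 13 (1.39%), where 3.75% and 4.84% of all regions tested were called higher and lower. In compact constitutive regions with a neighbour these shares were 3.58% and 2.32%. Both GCM libraries were above both LPS ones in 243 isolated regions and below both in 131, against 24.3% and 25.3% of all regions tested. In 48 of the 55 regions higher with GCM, LPS replicate 2 was the lower LPS library. LPS replicate 2 was also the lower one in 10 of the 13 regions lower with GCM, and in 77.5% of all isolated regions. Without it 15 regions were higher and 10 lower, against 1.35% and 2.48% of all regions tested, and without LPS replicate 1 71 were higher and 7 lower, against 3.09% and 3.7%. With total reads 13 were higher and 4 lower, against 0.761% and 3.54%. The total of 68 calls was 24 without GCM replicate 2, 41 without GCM replicate 1 and 4 in DESeq2, against 3.11%, 5.57% and 0.55% of all regions.

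The 4 regions that DESeq2 also called were the 4 with the smallest p-values among those higher with GCM. RID_00046698 (chr16:40732786-40733166, 381 bp) had 3.85 and 3.26 CPM with LPS, 7.61 and 9.0 with GCM, and 5.81 and 6.16 untreated. The 3 groups did not overlap, and the difference was 1.25 ± 0.190 (log2 ± SE, n = 2 per group, edgeR adjusted p = 1.57e-05) and 1.13 without LPS replicate 2. RID_00084884 (chr4:38700538-38701102) had 7.71 and 6.03 CPM with LPS, 12.9 and 13.0 with GCM, and 11.4 and 8.82 untreated. RID_00046717 had 7.51 and 5.87 CPM with LPS, 14.6 and 11.3 with GCM, and 10.3 and 11.2 untreated, and RID_00058357, given above, was the fourth. In all 4 the LPS libraries were below the untreated ones and the edgeR call held without LPS replicate 2.

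RID_00063069 (chr2:67484070-67484504) and RID_00001032 (chr1:20321239-20321725) showed the other arrangement. The first had 3.75 and 3.34 CPM with LPS, 7.61 and 6.87 with GCM, and 4.83 and 4.20 untreated. The second had 7.51 and 6.52 CPM with LPS, 11.8 and 11.8 with GCM, and 8.32 and 7.98 untreated. Here the untreated values lay nearer to LPS than to GCM, and neither region passed the edgeR test of GCM against untreated cultures (adjusted p = 0.0718 and 0.0628). The authors' deposited table calls RID_00001032 there (log2 0.52, adjusted p = 0.0473). The rest of the 10 were RID_00084674 (chr4:28926839-28927181), RID_00063601, RID_00001069 (chr1:21683977-21684286) and RID_00087712 (chr4:173273454-173273964), and the last 2 lost the call without LPS replicate 2.

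Of the regions lower with GCM than with LPS, RID_00099726 (chr5:172208567-172209238) had 13.4 and 13.6 CPM with LPS, 8.10 and 8.26 with GCM, and 11.0 and 9.94 untreated. The difference was -0.72 ± 0.144 (edgeR adjusted p = 0.00077), with close replicates in both stimulated groups. RID_00095099 (chr5:106687553-106688374) had 19.2 and 14.1 CPM with LPS, 10.7 and 10.4 with GCM, and 13.9 and 13.4 untreated. In both regions the untreated libraries lay between the stimulated groups. RID_00036137 (chr14:5796481-5797494) had the same order, with 13.2 and 14.8 CPM with LPS, 9.70 and 8.76 with GCM, and 11.2 and 11.1 untreated. So did RID_00064468 (chr2:122039303-122040139), with 10.04 and 8.88 CPM with LPS, 5.52 and 6.63 with GCM, and 7.78 and 8.82 untreated. The others of the 10 were RID_00032696, RID_00032385 and RID_00063345, given above, and RID_00005876 (chr1:133525243-133525643), RID_00054093 (chr18:4906676-4907136) and RID_00088980 (chr4:192726046-192726998). Without LPS replicate 2, the calls of RID_00063345, RID_00036137 and RID_00088980 were lost, and without LPS replicate 1 those of RID_00095099, RID_00005876, RID_00054093 and RID_00064468.

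The share of isolated regions called with LPS was smaller at greater distances, a difference that was not tested. LPS called 41 of 532 regions with a neighbour at 50 to 100 kb (7.71%), 14 of 241 at 100 to 200 kb (5.81%) and 7 of 163 beyond 200 kb (4.29%), against 9.85% of all regions tested. Without LPS replicate 2 the counts were 19 (3.57%), 8 (3.32%) and 3 (1.84%), against 5.69%, so the first 2 bands were then nearly level. Median levels were lower as well, at 5.76, 5.06 and 4.93 CPM. On chromosome X, LPS called 2 of 66 isolated regions, both lower, where 6.71% and 3.14% of all regions tested were called higher and lower, and neither kept the edgeR call without LPS replicate 2. GCM called 0 where edgeR called 1.34% and 0.231% of all, and DESeq2 also called 0. At an unadjusted p under 0.05 edgeR gave 8, all higher, where it gave 9.23% and 5.89% of all as higher and lower. GCM was higher than LPS in 1 X region, where 3.75% of all were called higher. None of the X regions changed 2-fold in any comparison. Few isolated regions on autosomes did so, at 0.115% for LPS, 0% for GCM and 0.345% for GCM against LPS.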

How the data were processed

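DNase I libraries were made from nuclei digested with 0.2 to 3.2 U of enzyme, and 3 concentrations were used, per the labels' protocols. Per the submitters' processing notes, the tools included Picard 1.95, Bowtie 1.1.2 and cutadapt 1.8.3, besides edgeR, DiffBind and SAMtools, with build rn5, and their order and settings are not given in the sources used here. The authors deposited raw counts per region. Per the file headers, the authors' comparison tables hold log2 fold changes, likelihood ratio scores, p-values and CPM per library. In each library the CPM follow a constant total, since this gave back 100% of counts to within 0.001. These totals ran from 60.1 M to 120 M, above the counts in the regions. They are taken here as total reads, though a scaled library size would give the same match. The authors' hotspot lists carry a score and, in their names, an FDR of 0.01.

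Regions were matched to hotspots with bedtools 2.31.1 (overlap of at least 1 bp) and summarised in Python 3.11.15 with pandas 2.3.3. The test was that of edgeR 4.0.16 (R 4.3.3) on the counts (quasi-likelihood, TMM, default filter with a minimum count of 10, 126284 regions, two-sided, Benjamini-Hochberg), with DESeq2 1.42.0 as an alternative, and the scripts were tested on simulated data. The SE is the log2 change divided by the square root of F. Positions count from 1. Per-base CPM columns of the authors' tables were not used, as they repeat line by line in both tables whatever the region.

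Members, lists and tests were chosen with earlier results of these data known. Regions were named by rule: per comparison and direction the 10 smallest p-values among called regions with groups that do not overlap, the 10 highest and 5 lowest levels, the 5 most isolated, the 5 with the smallest range, and those at the limits. No genome or annotation of build rn5 was used, so the planned sequence, motif, gene and marker descriptions were not made.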

Additional observations from a re-analysis of the deposited data

How the results depend on the processing

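The counts of isolated regions called were 62 for LPS, 11 for GCM and 68 for GCM against LPS. Leaving out 1 library gave 8 to 67, 0 to 19 and 24 to 78. Scaling to total reads gave 12, 1 and 17, and DESeq2 gave 1, 0 and 4. Scaling by the isolated regions alone, chosen after seeing the data, gave 39 (24 higher, 15 lower), 7 and 45. Under that scaling 11470, 1227 and 8678 of all 126348 regions tested were called. An isolation limit of 25 kb (2330 regions) gave 163, 29 and 163 calls, and 100 kb (404 regions) gave 21, 2 and 29. The same fit called 9.85%, 1.57% and 8.58% of all regions tested. For GCM, the 4 libraries alone gave 21 calls, where 2734 of all 125061 regions tested were called. The replicate block gave 25 (23 higher, 2 lower), where 3333 of 126284 were called. Pearson r of replicate differences between groups (untreated with LPS, untreated with GCM, LPS with GCM) was 0.05, 0.11 and -0.00127 across all regions and 0.07, 0.19 and 0.01 across isolated ones. Not every pair passed 0.1 and no label pairs the cultures, so the numbers are not taken as pairing. The median level of 5.38 CPM became 0.634 CPM per total reads, 6.00 at 25 kb and 5.04 at 100 kb. DESeq2 size factors, table totals without TMM, the filters, a fit of constitutive regions alone, the gap between edges and a 1000 bp limit kept each count within 1.5 times. No named region changed direction under any setting run. Named calls held in 256 of 320 trials for LPS, 104 of 160 for GCM and 274 of 320 for GCM against LPS. The trials reuse the same 6 libraries, many settings change a comparison little, and the regions were named for small p-values. These totals therefore do not measure how well the calls would replicate. Under DESeq2 1, 0 and 4 of the named calls held, while 19, 10 and 16 did not. A median of 40 to 68 counts per region limits what can be called.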

Other observations

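Isolated regions that lacked a hotspot in at least 1 library moved more than those open in all 6, as their choice by hotspots favours. Of the 1501 tested, 96 (6.40%) were higher and 128 (8.53%) lower with LPS (edgeR, adjusted p under 0.05). Over all regions tested the shares were 6.71% and 3.14%. With GCM 28 (1.87%) were higher and 20 (1.33%) lower, against 1.34% and 0.231% of all. Their median counts were lower than in regions open in all 6, at 18 to 31 per library. Their replicates also differed more, by a median of 0.26, 0.24 and 0.24 in absolute log2 CPM within the untreated, LPS and GCM pairs. A change past 2-fold with LPS was seen in 9.39% of these regions, against 3.10% of all regions tested. LPS replicate 2 was below LPS replicate 1 in 67.0% of these regions (median log2 difference -0.14). Without that library their median log2 change with LPS was 0.005, beside -0.10 with it. The part of that library in the decreases of either set was not tested beyond leaving it out.

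On chromosome X, compact constitutive regions with a neighbour had a median log2 difference between LPS replicates of 0.07, against 0.01 on autosomes, and between untreated replicates of 0.08 against 0.02.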
